A study of Mus musculus with 33 samples.

Results

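The genes of the mitochondrial respiratory chain and the ATP synthase were followed in mouse liver after fenofibrate and after fish oil. They were chosen by symbol: names beginning with Nduf, Uqcr or Atp5, names beginning with Cox4i, Cox5, Cox6, Cox7 or Cox8 without Cox6b2, and Sdha, Sdhb, Sdhc, Sdhd, Cyc1 and Cycs. On the Affymetrix mouse array used, 99 symbols met this rule. Of these, 91 had a probe set assigned to them alone, and 82 passed a filter on dim signal and were tested among 9005 genes. A probe set passed when 10 or more of the 33 arrays read 4 or higher (log2).

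The series holds liver RNA of 33 male C57BL/6J mice, 1 array per animal, killed at 17 weeks of age after 2 weeks on a diet and a morning fast. The fenofibrate group had 12 mice on a sunflower oil diet with 0.03% (w/w) of the drug, a prodrug whose active form switches on the nuclear receptor PPARα. The fish oil group had 11 mice whose diet replaced that oil with one holding 23.1% EPA and 21.1% DHA. The control group had 10 mice on the sunflower oil diet alone, with 81.3% oleic acid in the oil; in each diet the oil supplied 7% of energy. The labels name no allele and no other agent for any group. Expression of Alb, the main secretory product of hepatocytes, averaged 14.93 on fenofibrate, 14.94 on fish oil and 14.95 in control livers (log2). Alb was 1 of 6 hepatocyte markers listed. Of the 6, 4 were called lower on fenofibrate than control (limma adjusted p under 0.05) and none higher. These were Tat (-0.53), Cps1 (-0.45), Hnf4a (-0.42) and Apoa1 (-0.14), where 18.9% of all tested genes were called lower.

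The respiratory chain passes electrons from NADH and succinate to oxygen across the inner mitochondrial membrane and pumps protons as it does so; the ATP synthase lets the protons return and makes ATP. Complex I takes electrons from NADH, complex II from succinate, complex III hands them to cytochrome c, and complex IV passes them to oxygen. Complex V is the ATP synthase. Liver depends on this machinery to burn fatty acids, and PPARα is the receptor that turns on many fatty acid oxidation genes there.

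The rule took 44 symbols of complex I, 4 of complex II, 9 of complex III, 1 of cytochrome c, 16 of complex IV, 17 of complex V, and 8 Ndufaf genes, which help to assemble complex I and are no subunits of it. Tested were 33, 4, 9, 1, 10, 17 and 8 of these. Ndufa4, now counted with complex IV by many authors, stays with complex I here because of its symbol. Of the 9 genes below the filter, 6 are complex IV genes: Cox4i2, Cox6a2, Cox7b2, Cox7c, Cox8b and Cox8c, with highest values between 1.8 and 4.47; Cox4i2, Cox6a2 and Cox8b are isoforms known from lung or striated muscle. The other 3 are Ndufa4l2, Ndufb1 and Ndufb4, with highest values of 2.72, 4.02 and 2.17. Ndufb4 is also named on 2 probe sets of several genes, which were not analysed. Low values of single probe sets do not show that liver lacks the RNA of these 9 genes. A further 8 complex I symbols, among them Ndufa11 and Ndufs6, share their probe sets with another gene and were not analysed. Of the 82, 74 had a mean log2 value of at least 10, and Cox7a1 was among the dimmest, with 8 of 11 fish oil arrays and 9 of 10 control arrays at 4 or above.

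Livers on fenofibrate had more RNA of most of these genes than control livers, by a small amount each. Against control, 62 of the 82 genes were called higher at an adjusted p under 0.05 (limma, Benjamini-Hochberg over 9005 genes), 1 was called lower, and 19 were not called. Over all tested genes, 22% were called higher and 18.9% lower in this comparison. The median difference over the 82 genes was 0.18 on the log2 scale, with 78 of them positive, and over all tested genes it was 0.00. Of the 62 genes called higher, 60 were below 1.5-fold; the folds ran between 1.06 and 2.26 with a median of 1.16.

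Livers on fish oil showed little of this. Against control, 3 of the 82 genes were called higher, against 7.53% of all tested genes, and 5 were called lower, against 7% of all tested genes; 74 were not called. Leaving out 1 array gave 3 to 5 genes called higher and 1 to 6 called lower. The median difference was 0.01, which is the median over all tested genes. Of the 74 genes that encode subunits or cytochrome c, 69 had a 95% confidence interval of the difference that lay wholly between -0.25 and 0.25 on the log2 scale; the others were Cox7a1, Ndufa8, Ndufb3, Uqcr10 and Uqcrc2. The interval width was chosen after the data were seen.

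Against fish oil, fenofibrate gave 63 of 82 genes called higher and 2 called lower, where 19.8% of all tested genes were called higher and 19.1% lower; 17 were not called. The comparisons share arrays: both diets are set against the same controls, and the fenofibrate arrays serve here again. All fenofibrate arrays lay above all control arrays for 21 genes, which holds for 3.58% of all tested genes. All fenofibrate arrays lay above all fish oil arrays for 17 genes, against 4.09% of all tested genes. Most of these genes have bright probe sets, so the counts were also set against the 1721 tested genes with a mean of at least 10. Among those genes 29.2% were called higher on fenofibrate than in control livers, against 60 of the 74 respiratory genes of that brightness. On fish oil 13.7% were called higher than control, against 3 of the same 74.

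**Figure D1:**
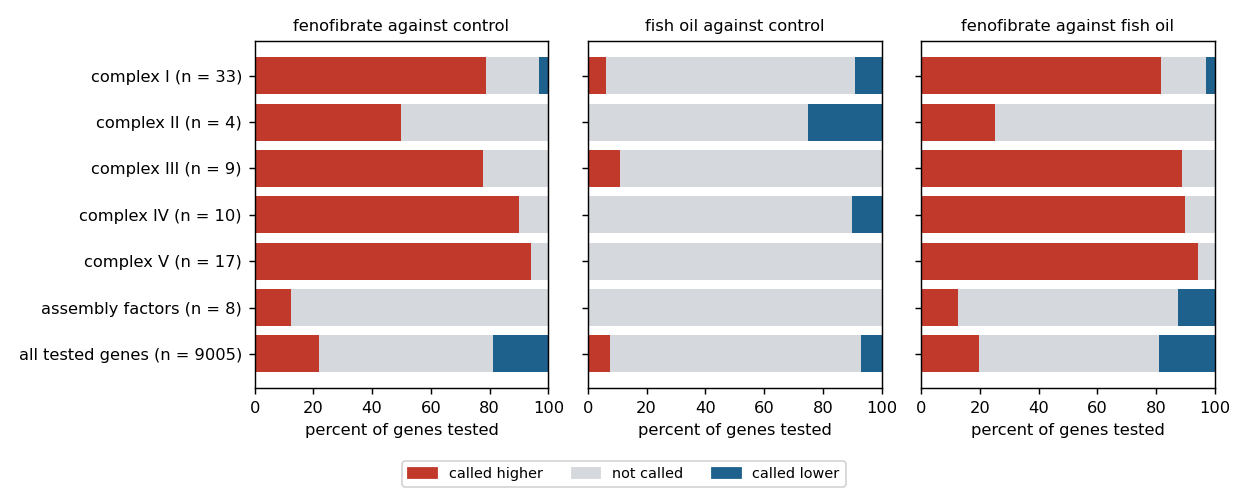
Percent of tested genes called higher, not called or called lower (adjusted p under 0.05) in each of 3 comparisons, for each complex, the Ndufaf assembly factors and all 9005 tested genes; n is the number of genes. Most genes of complexes I, III, IV and V are called higher on fenofibrate against control and against fish oil, and few are called on fish oil against control.

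The shift was seen in each fenofibrate liver. The median over the 82 genes, as a difference from the control mean, ran between 0.11 and 0.27 on the 12 fenofibrate arrays, with a median of 0.18. It ran between -0.04 and 0.09 on the 11 fish oil arrays and between -0.09 and 0.05 on the 10 control arrays, so no fenofibrate array overlapped the other diets. The same median over all tested genes stayed between -0.06 and 0.05 on every array. For complexes I, III, IV and V taken singly, the lowest fenofibrate array reached 0.12, 0.12, 0.13 and 0.08, and the highest control array 0.05, 0.09, 0.06 and 0.05. Complex II was the exception: its fenofibrate arrays ran between 0.02 and 0.24, those of fish oil between -0.09 and 0.12 and those of control between -0.15 and 0.10.

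**Figure D2:**
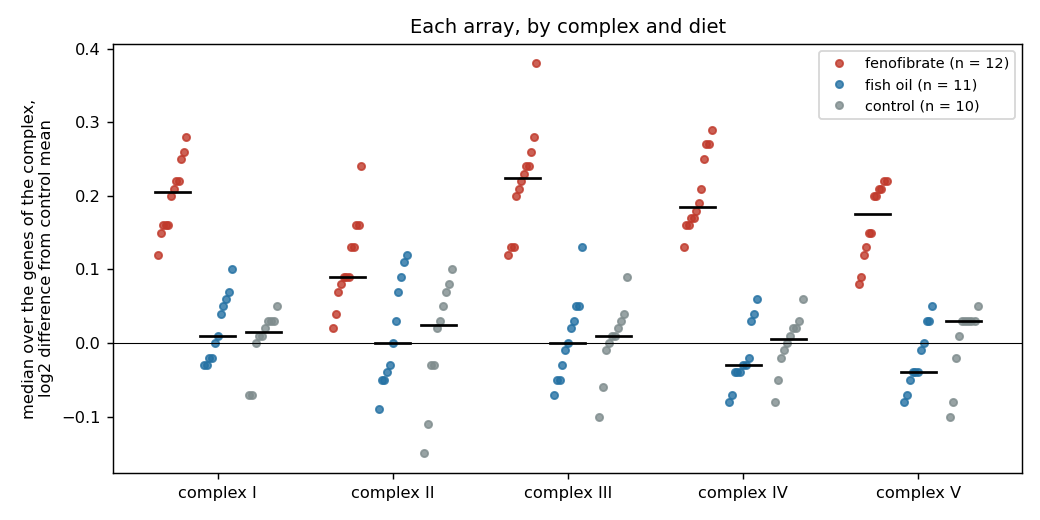
Median over the tested genes of each complex on every array, as a log2 difference from the control mean (vertical axis), for 12 fenofibrate, 11 fish oil and 10 control livers; points are arrays sorted by value and bars are group medians. The fenofibrate arrays lie above all control arrays in complexes I, III, IV and V, and overlap them in complex II.

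Some arrays and cell markers moved with the diets. Control replicates 1, 2 and 9 correlated less with the other control arrays (median r over tested genes between 0.972 and 0.981, against 0.989 to 0.993 for the other 7; the lowest of the fenofibrate arrays reached 0.986 and of the fish oil arrays 0.980), and without them 55 genes were called higher and 1 lower on fenofibrate than in control livers, and 2 higher and 6 lower on fish oil. The summed level of the 6 hepatocyte markers ran between 16.75 and 16.90 on fenofibrate, 16.82 and 16.93 on fish oil and 16.86 and 17.00 in control livers (log2), and 4 of the 6 were called lower on fenofibrate. Summed levels of 8 Kupffer cell markers had medians of 12.22, 12.34 and 12.38 on fenofibrate, on fish oil and in control livers, those of 6 stellate cell markers 11.94, 12.20 and 12.25, and those of 6 sinusoidal endothelial markers 11.78, 11.81 and 11.96. On fenofibrate 2 of 8 Kupffer, 3 of 4 tested stellate and 3 of 6 endothelial markers were called lower than control, where 18.9% of all tested genes were, and 1 endothelial marker, Lyve1, was called higher. Single markers of other cells differed more on fenofibrate: Alas2 of blood cells by -1.04 ± 0.18 (limma adjusted p = 1.38e-05), Cela1 of pancreatic acinar cells by -1.13 ± 0.18 (3.60e-06) and Ighm of lymphocytes by 0.67 ± 0.25 (0.0334). Other markers of the same lists were dim or not called. Hba-a1 of blood cells did not exceed 2.76 on any array, and Cpa1 and Prss2 of acinar cells 2.56 and 3.56. For lymphocytes, Cd3e did not exceed 3.24, and Ptprc differed by -0.22 ± 0.13 on fenofibrate (limma adjusted p = 0.199). With so few other markers of those cells above the filter, it cannot be told whether Alas2, Cela1 and Ighm follow their amount. The part of these arrays and markers in the results was not tested. In whole liver, fewer cells of a type and less RNA per cell cannot be told apart. The 3' minus 5' signal of Gapdh, a sign of RNA quality, ran between -0.21 and -0.03 on fenofibrate, -0.14 and -0.02 on fish oil and -0.14 and 0.03 in control livers. That of b-Actin ran between 1.00 and 1.27 on fenofibrate, 0.99 and 1.29 on fish oil and 1.06 and 1.57 in control livers, so the highest control values lay above both diets. Mice were housed 2 per cage, and the labels do not say which shared one; arrays with consecutive label numbers deviated together (median r of 0.14 over 16 pairs, against -0.13 over 150 other pairs), so standard errors may be too small.

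The start regions of some of these genes are shown because the members move together and because letter patterns of 4 factors known to act on mitochondrial or fat-burning genes could be looked for in them. The windows hold 300 bases, 250 before and 50 after the transcription start, from RefSeq on GRCm38.p6. Of the 82 genes, 69 had at least 1 window and 5 had more than 1. Capitals mark the letters searched on both strands: CGCANGCGC for NRF1, CCGGAAG for the ETS family that includes GABPA, TNAAGGTCA for ERR and GGTCANAGG for PPAR, of which ERR and PPAR share GGTCA. The regions are chr7:122101799-122102098 (minus strand) for Ndufab1, chr9:50603800-50604099 (minus) for Sdhd, chr6:50566520-50566819 (minus) for Cycs, chr13:30545267-30545566 (minus) for Uqcrfs1 and chr3:105959214-105959513 (minus) for Atp5pb. Each is written 5′ to 3′ along its gene.
Ndufab1: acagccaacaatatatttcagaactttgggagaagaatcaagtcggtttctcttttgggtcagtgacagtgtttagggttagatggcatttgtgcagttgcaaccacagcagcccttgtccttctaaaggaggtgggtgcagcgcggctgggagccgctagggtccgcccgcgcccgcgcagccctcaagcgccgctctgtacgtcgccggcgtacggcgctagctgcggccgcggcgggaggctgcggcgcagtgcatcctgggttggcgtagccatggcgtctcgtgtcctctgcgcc
Sdhd: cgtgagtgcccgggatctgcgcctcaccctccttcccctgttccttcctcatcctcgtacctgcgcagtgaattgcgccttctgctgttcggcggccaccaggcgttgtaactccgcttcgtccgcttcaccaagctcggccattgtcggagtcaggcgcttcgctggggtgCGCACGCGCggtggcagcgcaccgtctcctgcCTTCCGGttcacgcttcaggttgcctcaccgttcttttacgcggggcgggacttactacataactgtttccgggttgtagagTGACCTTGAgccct
Cycs: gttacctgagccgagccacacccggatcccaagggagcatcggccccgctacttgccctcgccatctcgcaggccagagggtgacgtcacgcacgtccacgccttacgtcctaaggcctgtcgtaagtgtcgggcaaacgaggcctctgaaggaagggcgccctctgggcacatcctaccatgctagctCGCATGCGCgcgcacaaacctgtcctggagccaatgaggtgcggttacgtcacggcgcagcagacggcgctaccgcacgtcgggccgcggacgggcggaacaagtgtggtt
Uqcrfs1: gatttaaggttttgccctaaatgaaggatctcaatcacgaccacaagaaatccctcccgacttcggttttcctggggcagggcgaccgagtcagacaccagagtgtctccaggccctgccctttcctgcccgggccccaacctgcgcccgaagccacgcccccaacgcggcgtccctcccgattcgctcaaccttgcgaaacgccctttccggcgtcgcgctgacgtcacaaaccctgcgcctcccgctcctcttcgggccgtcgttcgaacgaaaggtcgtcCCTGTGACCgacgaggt
Atp5pb: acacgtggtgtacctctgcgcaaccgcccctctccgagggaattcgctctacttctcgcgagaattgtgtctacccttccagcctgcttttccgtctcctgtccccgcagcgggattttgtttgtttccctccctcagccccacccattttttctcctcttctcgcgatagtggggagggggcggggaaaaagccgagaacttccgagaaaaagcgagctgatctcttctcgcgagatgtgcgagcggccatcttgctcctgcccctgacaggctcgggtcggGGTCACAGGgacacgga
Ndufab1, the complex I gene with the largest difference, held none of the 4. Sdhd held the NRF1 letters with their first base at -78 from the start, the ETS letters at -46 and the ERR letters at 37, and Cycs the NRF1 letters at -61. Uqcrfs1 and Atp5pb, both with the PPAR letters at 34, were the only tested members that held them, and are shown for that reason. Ndufab1 and Sdhd are shown for the largest fenofibrate difference of their complexes. The genes with the largest difference in complexes IV and V, Cox7a1 and Atp5d, are not shown. Cox7a1 held none of the letters. Atp5d held the NRF1 letters at 18 in 1 window and none in another.

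The NRF1 letters were found for 24 of the 69 genes (34.8%), in at least 1 window of the gene. This held for 16.6% of all tested genes with a window and 7.12% of all genes with one. By complex it held for 9 of 15 complex V genes, 3 of 5 of complex III, 2 of 3 of complex II, 6 of 30 of complex I and 1 of 8 of complex IV. The ETS letters were in 19 of 69 (27.5%), against 21.7% of tested genes. The ERR letters were in 2 (2.9%), against 0.948%, and the PPAR letters in 2 (2.9%), against 1.94%. Among members with a window, 20 of 53 called higher on fenofibrate held the NRF1 letters, and 4 of 16 of the other tested ones did. A match describes the letters only.

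Complex I is built of core subunits, which carry the electron path, and accessory subunits around them. On fenofibrate 26 of its 33 tested genes were called higher than control, 1 lower and 6 not called, with a median difference of 0.20. Of the 6 nuclear core genes tested, 4 were called higher (median 0.14), and of the 27 accessory genes 22 were called higher and 1 lower (median 0.21).

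Ndufab1 encodes the mitochondrial acyl carrier protein, an accessory subunit that also serves mitochondrial fatty acid synthesis. Its log2 values ran between 12.69 and 12.96 on fenofibrate (median 12.85), between 11.98 and 12.19 on fish oil (median 12.12) and between 11.94 and 12.25 in control livers (median 12.12). Fenofibrate arrays did not overlap those of either other diet. The difference from control was 0.72 ± 0.04 (SE, 1.65-fold, limma adjusted p = 3.07e-15) on fenofibrate and -0.01 ± 0.04 (adjusted p = 0.946) on fish oil. Of 3 dimmer probe sets of Ndufab1, with mean values of 5.96, 4.17 and 4.28, the first was called higher on fenofibrate at 0.99 ± 0.13. The others gave -0.07 ± 0.12 (adjusted p = 0.681) and 0.37 ± 0.17 (adjusted p = 0.0774).

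Ndufb3, an accessory subunit of the membrane arm, was called higher on both diets. Its values had medians of 11.25 on fenofibrate (11.09 to 11.46), 11.04 on fish oil (10.83 to 11.29) and 10.85 in control livers (10.73 to 10.94). All fenofibrate arrays lay above all control arrays, and fish oil lay between with overlap on both sides. The difference from control was 0.43 ± 0.05 (limma adjusted p = 6.29e-09) on fenofibrate and 0.18 ± 0.05 (adjusted p = 0.00839) on fish oil.

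Ndufc1 and Ndufa5, small accessory subunits, followed. Ndufc1 ran between 11.63 and 11.85 on fenofibrate, 11.20 and 11.49 on fish oil and 11.15 and 11.57 in control livers, a difference of 0.38 ± 0.04 on fenofibrate. Ndufa5 ran between 12.31 and 12.58 on fenofibrate, 12.00 and 12.27 on fish oil and 11.89 and 12.26 in control livers, a difference of 0.33 ± 0.04. Neither gene's fenofibrate arrays overlapped those of another diet.

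The core subunits Ndufs7 and Ndufs1, which hold iron-sulfur clusters, were higher by 0.27 ± 0.04 and 0.22 ± 0.04 on fenofibrate. Ndufv2, Ndufs3, Ndufv1 and Ndufs8 make up the rest of the tested core. Ndufv2 and Ndufs3 were called higher by 0.16 ± 0.03 and 0.12 ± 0.05. Ndufv1, which binds NADH, differed by 0.03 ± 0.03 (limma adjusted p = 0.437) and Ndufs8 by 0.08 ± 0.05 (adjusted p = 0.186). The other uncalled complex I genes were Ndufa6, Ndufa1, Ndufc2 and Ndufa4, with differences between 0.01 and 0.11; Ndufc2 was called higher without control replicate 3 (adjusted p = 0.046).

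Ndufa13, an accessory subunit also known as GRIM-19, was the only one called lower on fenofibrate. Its values had medians of 12.29 on fenofibrate (12.19 to 12.44), 12.38 on fish oil (12.18 to 12.41) and 12.41 in control livers (12.28 to 12.47). The groups overlapped, and the difference from control was -0.09 ± 0.04 (limma adjusted p = 0.0481). The call was lost when any 1 of 23 arrays was left out, with adjusted p between 0.0502 and 0.0916, and with the replicate block (adjusted p = 0.123).

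On fish oil 2 complex I genes were called higher and 3 lower. Besides Ndufb3, Ndufv1 was higher, with a median of 11.84 on fish oil and 11.71 in control livers, by 0.12 ± 0.03 (limma adjusted p = 0.0158); the adjusted p became 0.0749 when control replicates 1, 2 and 9 were left out. Ndufa8, an accessory subunit of the intermembrane space side, had a median of 11.34 on fish oil (11.19 to 11.49) and 11.53 in control livers (11.42 to 11.63), and fell by 0.18 (limma adjusted p = 0.00448). On fenofibrate the same gene was higher than control by 0.14 ± 0.04 (adjusted p = 0.0106; 0.0559 without the arrays that have an A in their label number).

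Ndufa6 and Ndufc2, accessory subunits, differed from control by -0.13 ± 0.05 (limma adjusted p = 0.0476) and -0.12 ± 0.04 (adjusted p = 0.0247) on fish oil. The Ndufa6 call was lost without any 1 of 23 arrays (adjusted p up to 0.108), and the Ndufc2 call without control replicate 3 (0.0518) or 5 (0.0529). With consecutive label numbers as a block both calls ended (adjusted p = 0.0868 for Ndufa6 and 0.0716 for Ndufc2), and with the replicate block that of Ndufa6 did (0.0543). With fenofibrate set against fish oil, 27 complex I genes were called higher and Ndufv1 lower, at -0.08 ± 0.03 (adjusted p = 0.0387). That call ended without fenofibrate replicate 2, 8, 9, 11 or 12 or fish oil replicate 4, 5, 6, 7, 10 or 11, with adjusted p up to 0.0742, and with consecutive label numbers as a block (0.0796).

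**Figure D3:**
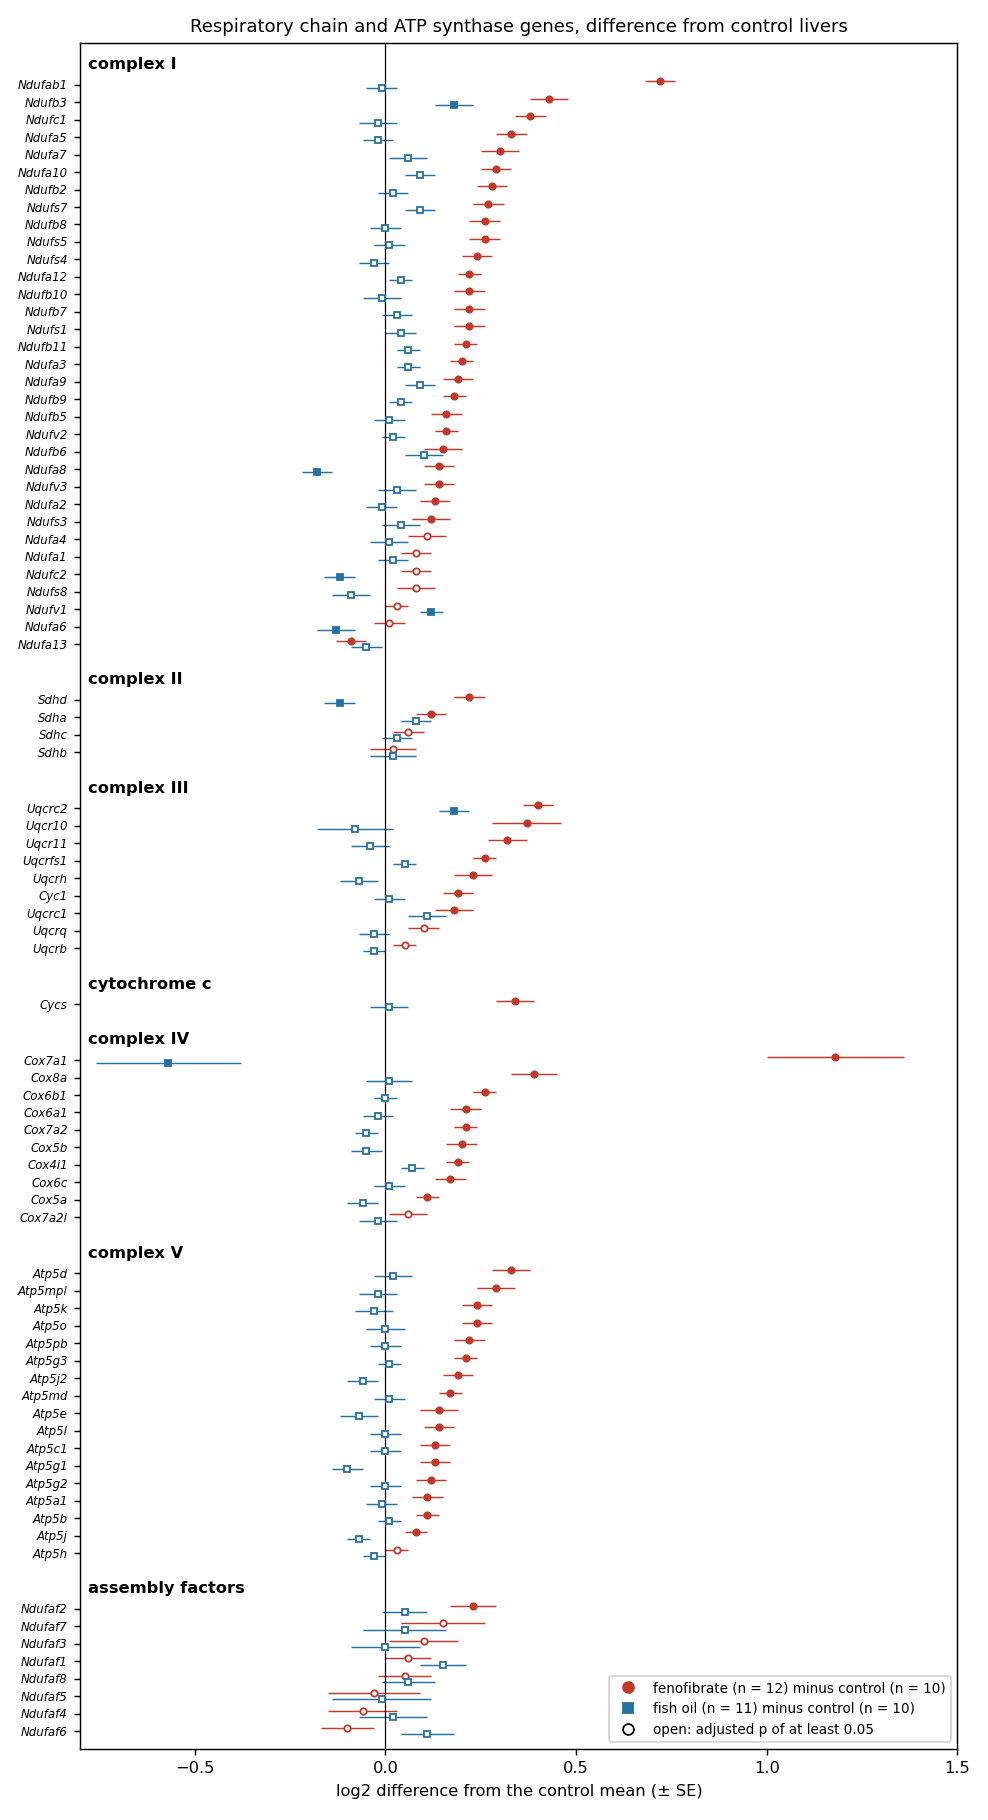
Log2 difference from the control mean for each of the 82 tested genes, grouped by complex and sorted by the fenofibrate value: circles are fenofibrate (n = 12) and squares fish oil (n = 11) against control (n = 10), bars are ± SE and filled symbols have an adjusted p under 0.05. Fenofibrate circles lie right of 0 for 78 genes, and fish oil squares scatter around 0.

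Complex II is the succinate dehydrogenase, which also belongs to the citric acid cycle. Of its 4 genes, 2 were called higher on fenofibrate than control, with a median difference of 0.09. Sdhd, a membrane anchor, had a median of 11.68 on fenofibrate (11.60 to 11.82), 11.32 on fish oil (11.24 to 11.48) and 11.50 in control livers (11.24 to 11.55). The fenofibrate arrays lay above all others, and the difference from control was 0.22 ± 0.04 (limma adjusted p = 4.14e-05). On fish oil Sdhd differed from control by -0.12 ± 0.04 (adjusted p = 0.039), a call that ended without fish oil replicate 1, 2, 3, 4, 5, 8 or 11 or control replicate 3, 4, 5, 6, 8, 9 or 10, with adjusted p up to 0.075. It also ended in 6 other alternatives, among them the block of consecutive label numbers (adjusted p = 0.0816) and the replicate block (0.061), with adjusted p up to 0.357. With the most variable probe set the fenofibrate difference was 0.15 (adjusted p = 0.084).

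Sdha, the flavin subunit, was higher by 0.12 ± 0.04 on fenofibrate (limma adjusted p = 0.0162). Without control replicates 1, 2 and 9 the Sdha difference was 0.07 (adjusted p = 0.191), and as the mean of its probe sets 0.05, not called either. That mean holds a dim probe set with a mean of 4.36, at -0.09 ± 0.10 (adjusted p = 0.527). The other bright probe set, with a mean of 11.68, was called higher at 0.11 ± 0.04 (adjusted p = 0.0148). Sdhb, the iron-sulfur subunit, differed by 0.02 ± 0.06 (adjusted p = 0.833) and Sdhc, the other anchor, by 0.06 ± 0.04 (adjusted p = 0.249). On fish oil the differences of Sdha, Sdhb and Sdhc were 0.08 ± 0.04, 0.02 ± 0.06 and 0.03 ± 0.04, none called. Between fenofibrate and fish oil, Sdhd alone was called, at 0.34 ± 0.04 (adjusted p = 1.31e-08).

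Complex III moves electrons from ubiquinol to cytochrome c. Of its 9 genes, 7 were called higher on fenofibrate than control, with a median of 0.23, and 8 were called higher than on fish oil. Uqcrc2, a large core protein, had a median of 12.69 on fenofibrate (12.56 to 12.80), 12.47 on fish oil (12.27 to 12.57) and 12.29 in control livers (12.14 to 12.46). All fenofibrate arrays lay above all control arrays, at 0.40 ± 0.04 (limma adjusted p = 1.66e-09), and it was the 1 complex III gene called higher on fish oil, at 0.18 ± 0.04 (adjusted p = 0.004).

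Uqcrfs1, the Rieske iron-sulfur protein, ran between 12.31 and 12.57 on fenofibrate, 12.19 and 12.33 on fish oil and 12.06 and 12.29 in control livers. The difference on fenofibrate was 0.26 ± 0.03 (limma adjusted p = 1.50e-07). The small subunits Uqcr10 and Uqcr11 were higher by 0.37 ± 0.09 and 0.32 ± 0.05, the first with the widest spread of the complex (10.69 to 11.81 on fenofibrate, 10.34 to 11.07 in control livers). Cyc1, cytochrome c1, was higher by 0.19 ± 0.04 (adjusted p = 1.38e-04), with 0.01 ± 0.04 on fish oil. Uqcrb and Uqcrq, at 0.05 ± 0.03 and 0.10 ± 0.04, were not called; a second probe set of Uqcrb, with a mean of 12.25, was called higher at 0.21 ± 0.05 (adjusted p = 0.00207).

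Cycs, the somatic cytochrome c that shuttles electrons between complexes III and IV, had a median of 13.26 on fenofibrate (12.95 to 13.56), 12.93 on fish oil (12.80 to 13.06) and 12.89 in control livers (12.82 to 13.24). The groups overlapped. The difference from control was 0.34 ± 0.05 (limma adjusted p = 5.50e-06) on fenofibrate and 0.01 ± 0.05 (adjusted p = 0.943) on fish oil. Both other Cycs probe sets past the filter gave larger differences on fenofibrate, 0.47 ± 0.05 and 0.45 ± 0.06.

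Complex IV, cytochrome c oxidase, had 9 of 10 tested nuclear genes called higher on fenofibrate than control and 9 called higher than on fish oil. Cox6b1, a subunit facing the intermembrane space, ran between 13.57 and 13.76 on fenofibrate, 13.33 and 13.44 on fish oil and 13.34 and 13.42 in control livers, a difference of 0.26 ± 0.03 (limma adjusted p = 1.79e-08) with no overlap. Cox4i1, the regulatory subunit found in most tissues, was higher by 0.19 ± 0.03 and Cox6a1, the liver form of its pair, by 0.21 ± 0.04. Cox8a, the form found in most tissues, was higher by 0.39 ± 0.06.

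The 3 tested Cox7a genes differed most among themselves. Cox7a1, the form typical of heart, skeletal muscle and brown fat, had a median of 6.10 on fenofibrate (5.80 to 6.51), 4.43 on fish oil (3.58 to 5.06) and 5.05 in control livers (3.82 to 5.78). All fenofibrate arrays lay above all others, with a difference from control of 1.18 ± 0.18 (2.26-fold, limma adjusted p = 3.17e-06). Cox7a2, the liver form, was higher by 0.21 ± 0.03 (adjusted p = 3.13e-06), and Cox7a2l, tied to the assembly of supercomplexes, differed by 0.06 ± 0.05 (adjusted p = 0.372).

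Cox7a1 was the only complex IV gene called on fish oil, at -0.57 ± 0.19 (limma adjusted p = 0.0339). That call ended without fish oil replicate 2, 5, 9 or 11 or control replicate 3, 4, 8, 9 or 10 (adjusted p up to 0.0728), when only the arrays of those diets were fitted (0.0902), and with the block of consecutive label numbers (0.067) or of replicate numbers (0.0811). Of the 5 genes called lower on fish oil, Ndufa8 alone kept its call with consecutive label numbers as a block (adjusted p = 0.0161). No striated muscle marker exceeded 2.98 on any array, and Ucp1, the defining marker of brown fat, did not exceed 2.41. The summed level of the brown fat markers, Ucp1 and Cidea, ran between 3.61 and 9.84 on fenofibrate, 3.13 and 3.60 on fish oil and 3.27 and 3.49 in control livers. The medians were 4.51, 3.38 and 3.37. The high end came from Cidea, which did not pass the filter and had a highest value of 9.83.

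**Figure D4:**
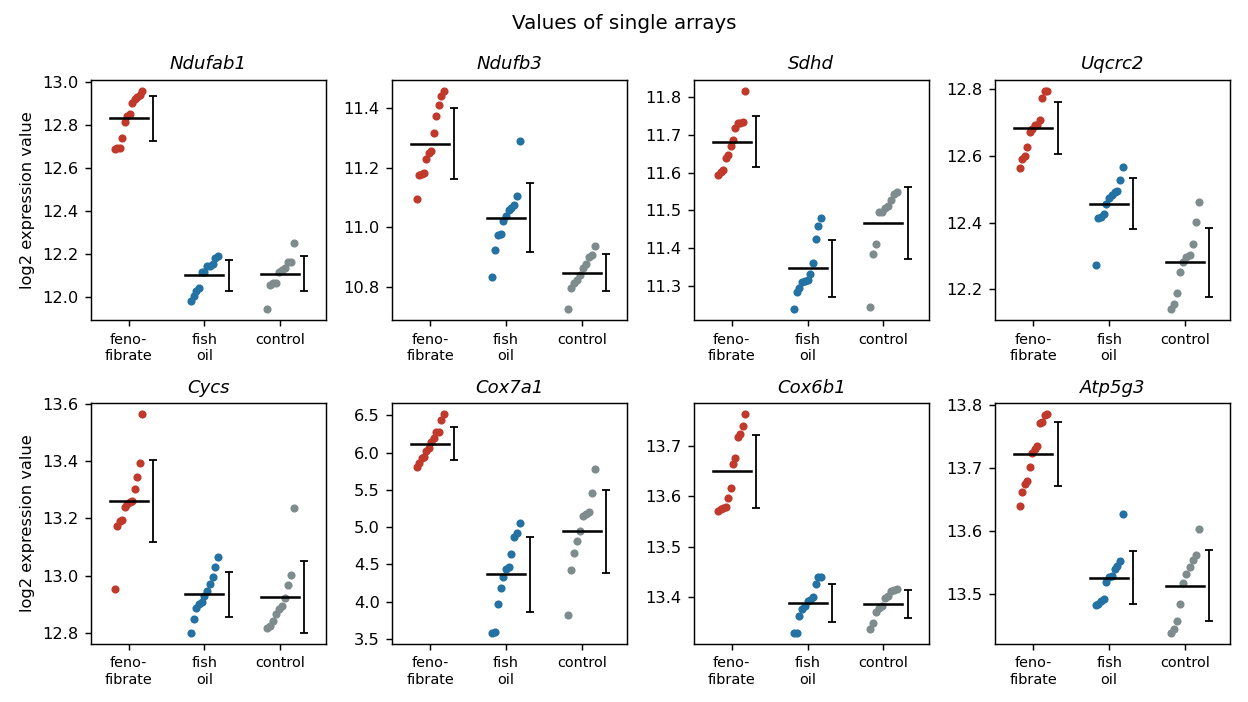
Log2 expression values of 8 genes on single arrays, for fenofibrate (n = 12), fish oil (n = 11) and control (n = 10) livers, each panel on its own axis; horizontal lines are means and vertical bars ± SD, with points sorted by value. Fenofibrate arrays lie above all control arrays for each gene but Cycs, and Cox7a1 shows the largest difference between group means.

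Complex V, the ATP synthase, had 16 of 17 genes called higher on fenofibrate than control, none lower, and 16 called higher than on fish oil; none was called on fish oil against control by limma, where 2 were lower and 0 higher at an unadjusted p under 0.05. Without control replicate 1 or 2 Atp5g1 was called lower on fish oil (adjusted p = 0.0467 and 0.0416). All 5 genes of the catalytic F1 head were called higher (median 0.13), as were 3 of 4 of the peripheral stalk (0.15), all 3 of the subunit c ring (0.13) and all 5 small membrane subunits (0.19). Without control replicates 1, 2 and 9, 11 of the 17 were called higher, with a median of 0.15 against 0.14.

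Atp5d, the delta subunit of the F1 head, had the largest difference. It ran between 11.98 and 12.35 on fenofibrate, 11.63 and 11.93 on fish oil and 11.53 and 12.00 in control livers, and was higher by 0.33 ± 0.05 (limma adjusted p = 2.99e-06). Atp5a1 and Atp5b, the alpha and beta subunits that form the catalytic sites, were each higher by 0.11 (SE 0.04 and 0.03). Atp5mpl, a small membrane subunit, was higher by 0.29 ± 0.05, and Atp5pb, a stalk subunit, by 0.22 ± 0.04.

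The 3 subunit c genes encode the same mature protein with different import signals. Atp5g3 ran between 13.64 and 13.78 on fenofibrate, 13.48 and 13.63 on fish oil and 13.44 and 13.60 in control livers, with no overlap on fenofibrate, and was higher by 0.21 ± 0.03 (limma adjusted p = 9.82e-07). Atp5g1 was higher by 0.13 ± 0.04 (adjusted p = 0.00654) and Atp5g2 by 0.12 ± 0.04 (adjusted p = 0.0233). Without control replicates 1, 2 and 9 the adjusted p of Atp5g1 was 0.075 and of Atp5g2 0.207, and without control replicate 1 alone that of Atp5g2 was 0.0552. Atp5h, a stalk subunit, differed by 0.03 ± 0.03 (adjusted p = 0.514), while its other probe set, with a mean of 12.43, was called higher at 0.12 ± 0.04 (adjusted p = 0.0336).

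Of the 8 Ndufaf genes, 1 was called higher on fenofibrate than control, which is no more than the 22% of all tested genes. It was Ndufaf2, at 0.23 ± 0.06 (limma adjusted p = 0.00153), and the median on fenofibrate was 0.06. On fish oil none was called, where 7.53% of all tested genes were called higher, and 1 was higher at an unadjusted p under 0.05. Ndufaf1 was called higher on fish oil without control replicate 2 (adjusted p = 0.0449) or fish oil replicate 9 (0.0149). The difference between these genes and the subunits was not tested. Between fenofibrate and fish oil Ndufaf6 differed by -0.22 ± 0.07 (adjusted p = 0.0129). Ndufaf5 lay near the filter, with 10 of 11 fish oil arrays at 4 or above.

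Lists of other genes of the pathway gave a wider view. Of 39 tested assembly factors other than Ndufaf genes, 15 were called higher and none lower on fenofibrate than control (median 0.11), where 22% of all tested genes were called higher. On fish oil 4 of the 39 were called higher, Sco2, Bcs1l, Ecsit and Cmc2, a share near the 7.53% of all tested genes. Cox17, a copper chaperone for complex IV, was higher by 0.48 ± 0.04 (limma adjusted p = 1.47e-12), and Tmem70, which serves ATP synthase assembly, and Acad9, which serves complex I assembly, by 0.38 each.

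Of 20 genes for electron entry and ubiquinone synthesis, 12 were called higher and 3 lower on fenofibrate (median 0.26), and 6 higher on fish oil. Over all tested genes 22% were called higher and 18.9% lower on fenofibrate, and 7.53% higher on fish oil. Etfdh, which passes electrons from fatty acid oxidation to ubiquinone, averaged 11.68 on fenofibrate, 11.37 on fish oil and 11.05 in control livers and was higher than control by 0.63 ± 0.06 on fenofibrate and 0.31 ± 0.06 on fish oil. Chdh, choline dehydrogenase, and Coq9, a ubiquinone synthesis protein, were higher by 0.53 ± 0.07 and 0.35 ± 0.05 on fenofibrate. The 3 genes called lower on fenofibrate were Prodh, proline dehydrogenase, at -1.17 ± 0.15, Sqor at -0.35 ± 0.07 and Dhodh at -0.38 ± 0.15.

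Of 16 regulators of mitochondrial genes, 3 were called higher on fenofibrate, which is no more than the 22% of all tested genes: Tfb2m at 0.27, Polg at 0.27 and Tfam at 0.20, which serve mitochondrial DNA and its transcription. Ppargc1a, the coactivator, differed by -0.31 ± 0.23 (limma adjusted p = 0.296). On fish oil Tfb2m and Polrmt were called higher and Esrra lower, at -0.23. Over all tested genes 7.53% were called higher and 7% lower on fish oil. Of 7 exchange and uncoupling genes, 3 were called higher on fenofibrate, where 22% of all tested genes were: Nnt at 0.71, Slc25a4 at 0.39 and Slc25a3 at 0.09. ND5, the 1 mitochondrially encoded subunit named on the array, differed by 0.02 ± 0.04 on fenofibrate (adjusted p = 0.737) and by 0.14 ± 0.04 on fish oil (adjusted p = 0.0374). Atpif1, the inhibitor of the ATP synthase, averaged 9.65 on fenofibrate, 8.96 on fish oil and 9.35 in control livers, a difference from control of 0.30 ± 0.07 on fenofibrate and -0.39 ± 0.07 on fish oil (adjusted p = 8.11e-04 and 1.53e-04). Cox6b2, a testis form of a complex IV subunit that the rule leaves out, ran between 7.32 and 9.54 on fenofibrate, between 2.50 and 3.65 on fish oil and between 2.33 and 3.08 in control livers. It passed the filter through the fenofibrate arrays alone, with every fish oil and control array under 4, so no size of difference is given.

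The members carry several probe sets in many cases, and these gave a check that does not rest on the brightest one. Of 153 member probe sets past the filter, 107 were called higher and none lower on fenofibrate than control, and 62 of the 107 were brightest ones. On fish oil 4 were called higher and 5 lower than control, and for fenofibrate against fish oil 112 higher and 3 lower. The share called among all probe sets past the filter was not counted. In 45 genes with more than 1 probe set, all of them had the same sign in 38, 27 and 41 genes in those comparisons, and none was called both ways. The brighter 37 subunits had a median difference of 0.17 on fenofibrate and the dimmer 37 one of 0.22.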

How the data were processed

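Each of the 33 livers was hybridised to its own Affymetrix mouse array. The deposited table holds log2 values per probe set from the authors; the submitters' processing notes name GCRMA 2.24.1, which normalizes arrays to a common distribution, so that array medians are close to each other, and compresses dim differences. Precision is limited by how many arrays each group has, since arrays carry no read depth.

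Probe sets of 1 gene that read 4 or higher (log2) on 10 or more arrays were kept, and the brightest stood for its gene, giving 9005 genes. Symbols were updated to RefSeq names of GRCm38.p6. One linear model per gene over the 3 groups was fitted with limma 3.58.1 (statmod 1.5.0, R 4.3.3; lmFit, contrasts, eBayes). Tests were two-sided, and p-values were adjusted by Benjamini-Hochberg across all 9005 genes. The fit was tested on simulated data. Fenofibrate and fish oil are both compared with the same control arrays.

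The members and the gene lists were chosen with earlier results of these data known. Genes named with full values were, for each complex, the 3 called genes with the smallest adjusted p, the largest difference and every call against the majority, all Sdh and subunit c genes, Cycs, Cyc1 and the Cox isoform pairs. Other genes named, such as those of the core of complex I, were chosen after their values were seen. The labels do not say that replicate numbers pair the mice, and the main fit does not pair them. Samples with the same replicate number in 2 groups had a median r of 0.05 (-0.21 to 0.35 over 31 pairs, 12 over 0.1). Pairs with unlike numbers in 2 groups were not computed, so these values cannot decide whether the numbers pair the mice. Replicate numbers are those of the sample titles; for fish oil replicate 6 and control replicate 5 another label gives a different number. Alternatives changed the filter, scaling, probe set, variance model, blocks and arrays used.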

Additional observations from a re-analysis of the deposited data

Results flagged for a closer look

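Of 36 genes with named values, 4 had 1 control array far from the other control arrays by Dixon's gap test over the 10 arrays; chance gives this in about 1 in 20 groups. Cycs read 13.24 in control replicate 9, with the next array at 13.0. Sdhb read 11.86 in control replicate 1, with the next at 12.09. Uqcr10 read 10.34 in control replicate 8, with the next at 10.76. Uqcrh, the hinge protein of complex III, read 12.4 in control replicate 5, with the next at 12.24.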

How the results depend on the processing

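Over the alternatives other than leaving out 1 array, between 54 and 64 genes were called higher on fenofibrate than control and between 55 and 64 higher than on fish oil; leaving out 1 array gave 60 to 63 in both. The median differences of 0.18 and 0.17 stayed between 0.15 and 0.19. With the replicate block 63 genes were higher than control, 62 higher than on fish oil, and 3 higher on fish oil than control. The counts of lower genes were small and moved. The count lower on fenofibrate than control was 0 with no filter, the most variable probe set, every probe set, no _s_at or _x_at probe sets, only 2 groups fitted, the replicate block, the block of consecutive label numbers, and without arrays with an A in the label number (0 to 1 leaving out 1 array). The count higher on fish oil was 5 with array weights and without the A arrays (3 to 5 leaving out 1 array; 5 without fish oil replicate 9). The count lower on fish oil was 1 with no filter, only 2 groups or the consecutive block, 2 with the most variable probe set or the replicate block, and 3 with the mean of probe sets or without the A arrays. It was 1 to 6 leaving out 1 array: 1 without control replicate 3, 2 without fish oil replicate 2, 5 or 11 or control replicate 4, 5, 8 or 10, and 3 without fish oil replicate 1, 3, 8 or 9 or control replicate 6 or 9. The count lower on fenofibrate than fish oil was 1 with no filter, the most variable probe set or either block (1 to 2 leaving out 1 array). With the most variable probe set, which for these genes is a dim one, the sign turned for Atp5j2 (-0.05 against control, -0.13 against fish oil), Sdha (-0.09 against control), and Ndufc2 (0.19 on fish oil, -0.20 for fenofibrate against fish oil). Causes were not tested. Signal near the filter limits Cox7a1 and Ndufaf5.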
